A study of Mus musculus with 12 samples.

Results

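Total CD8 T cells from the mesenteric lymph nodes (MLN), which drain the intestine, were compared with total CD8 T cells from peripheral lymph nodes (PLN) of female C57BL/6 mice. The comparison used 8 of the 12 arrays in the series, 4 from MLN and 4 from PLN. They form 4 pairs of 1 genotype each: 2 pairs of wild type (WT) mice, 1 pair labelled AID KO and 1 pair of uMT mice. AID KO is the genotype as labelled, and uMT mice lack mature B cells. Cells were purified by magnetic separation, cell sorting or both, and no treatment was named. The labels do not give the age of the mice, the number pooled, or which peripheral nodes were taken. The series' design text states that there were no replicates, so each knockout genotype gave 1 MLN and 1 PLN array. The 2 WT arrays of a site, titled as controls for different knockout arrays, are taken here as 2 samples. The p-values measure the spread between the arrays of the fit, which may be technical. The other 4 arrays, naive PLN cells of the knockouts, were not compared, but they entered the fit and so the spread behind the p-values.

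Mesenteric nodes are a site where dendritic cells and stromal cells convert vitamin A to retinoic acid. Retinoic acid acts through nuclear receptors and is known to give T cells the gut homing receptors CCR9 and integrin alpha4beta7. Nodes that drain the skin instead favour selectin ligands and the receptors CCR4 and CCR10, which take T cells to skin. Genes of retinoid response and of migration were therefore described as groups.

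Levels are given as log2 of the array's processed intensity minus that array's 75th percentile, so that 0 is the 75th percentile of an array. Differences are MLN minus PLN on this log2 scale, with the standard error (SE) of the limma fit. The 75th percentile intensity lay between 431.5 and 786.9 on the 8 arrays, and 50.1% to 56.8% of spots were well above background. Pearson correlations over features were 0.983 to 0.992 between arrays of 1 slide and 0.978 to 0.987 between slides. Each WT pair lay within 1 slide, whereas the AID KO and uMT pairs crossed the 2 slides in opposite directions. The second position number of an array on its slide was 1 or 2 for every PLN array and 3 or 4 for every MLN array, so site and array position cannot be told apart. The arrays labelled AID KO are called so by their label only. Over 16 measured CD8 T cell identity genes the median difference was -0.04, and none passed the test. In bulk samples, fewer cells of a type and less RNA per cell cannot be told apart.

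Over the 4 pairs, MLN cells were marked by a small set of genes. P2rx7, Dhrs3, Tgm2, Hic1, Osgin1, Dtx4 and Dtx1 rose, and Wnt10a fell. Gcnt1 and Anxa1 were also called lower in MLN, where they were not well above background, and neither passed with normexp background correction. Of 25788 features tested, 27 passed an adjusted p of 0.05 (0.105%), of which 24 were higher (0.0931%) and 3 lower (0.0116%) in MLN. All 27 had 1 sign in the 4 pairs and no overlap between the 4 MLN and 4 PLN arrays, which held for 557 of 25780 features with all 8 values (2.16%). Of the 27, 21 are named genes and 6 have no gene name or a clone-style name. The count rests on few arrays: it was 2 without either AID KO array, 3 without either WT PLN array, 6 without WT MLN 2, 14 without WT MLN 1 and 20 without either uMT array. P2rx7 passed in the 18 alternative fits tried, with an adjusted p of 9.42e-06 to 0.0279.

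**Figure D1:**
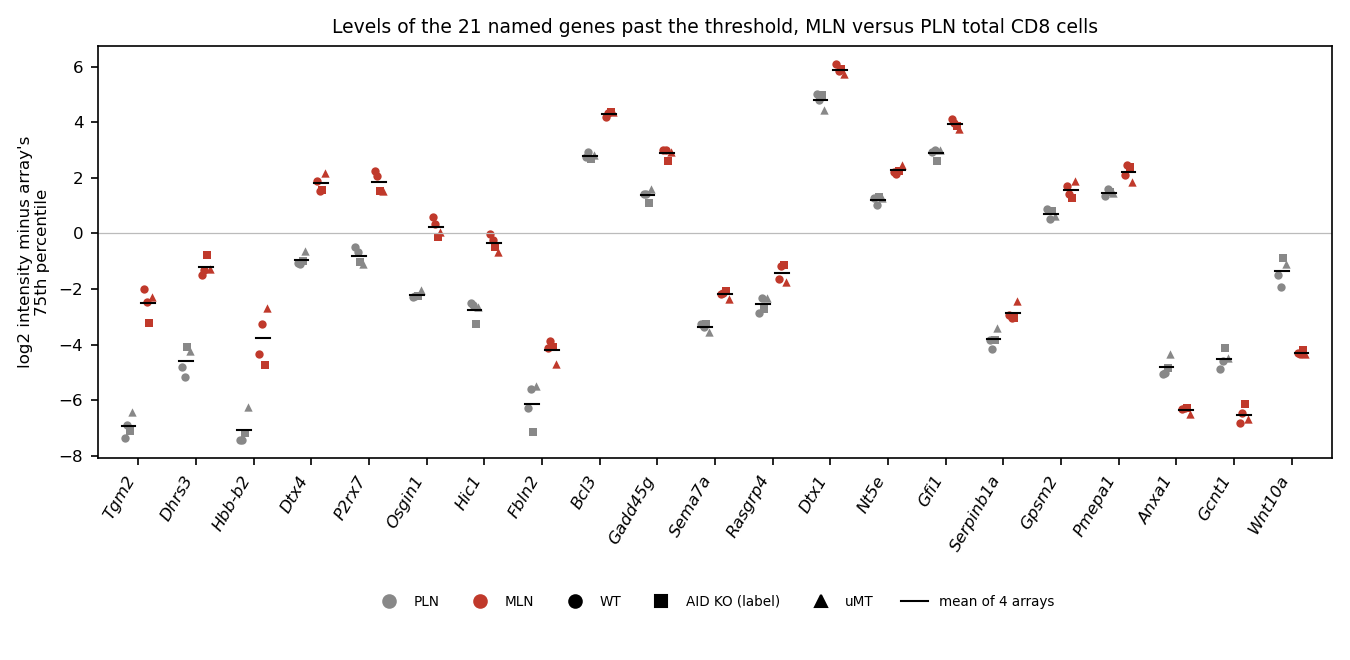
Level of each of the 21 named genes past the threshold, as log2 intensity minus the array's 75th percentile, on the 4 PLN arrays (grey) and the 4 MLN arrays (red). Circles are WT, squares AID KO by label and triangles uMT, and bars are means of 4 arrays. The red and grey points of a gene do not overlap, with 18 genes higher and 3 lower in MLN.

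P2rx7 encodes P2X7, an ion channel that opens when extracellular ATP binds. It read -0.48 and -0.68 on the WT PLN arrays, -1.01 with AID KO and -1.12 with uMT. In MLN it read 2.25 and 2.05 in WT and 1.53 and 1.54 in AID KO and uMT. The sites lay far apart, and the 2 knockout arrays were the lowest of each site. The difference was 2.67 (SE 0.07, adjusted p = 0.000801), a 6.34-fold rise. It was 2.74 and 2.73 in the WT pairs, 2.54 in the AID KO pair and 2.65 in the uMT pair. The gene's 3 probes gave differences of 2.61 to 3.12.

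Of 23 measured genes of retinoid metabolism and response, 4 rose and none fell, beside 0.0931% of all features that rose. They were Tgm2, Dhrs3, Hic1 and P2rx7, and the median over the 23 was 0.01, beside -0.02 over all features. The lists were drawn up with earlier results of these data known, so the count is a description. Dhrs3, a reductase that turns retinaldehyde back to retinol and was above background on 3 of 4 PLN arrays, read -4.81 and -5.17 in WT PLN, -4.09 with AID KO and -4.21 with uMT. It read -1.48, -1.32, -0.76 and -1.29 in the matching MLN arrays. Every MLN array was brighter than every PLN array, and the fitted difference was 3.36 (SE 0.16, adjusted p = 0.00563). The size depends on the background correction and the probe: it was 1.86 with normexp and 2.13 as the mean of the gene's probes, both past the threshold. A dimmer probe of Dhrs3, above background on 2 arrays, gave 0.91.

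Tgm2, a transglutaminase that crosslinks proteins, was not well above background on any PLN array, where it read -7.36 to -6.42. In MLN it read -2.0 and -2.46 in WT, -3.21 in AID KO and -2.30 in uMT, well above background on all 4. Its level was at least 6.18-fold higher in MLN (adjusted p = 0.00563). Such bounds set the MLN mean against the lowest signal that counted as well above background on the PLN arrays. Genes above background at 1 site alone entered the test through that site, so that they differ is in part set by the filter. With normexp background the Tgm2 difference was 1.41, and it still passed. Hic1, a transcriptional repressor, read -2.52 and -2.59 in WT PLN, -3.27 with AID KO and -2.63 with uMT. In MLN it read -0.02, -0.25, -0.49 and -0.65, a rise of 2.40 (SE 0.13, adjusted p = 0.00563).

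Apart from Dhrs3, no retinoid receptor or enzyme of retinoid metabolism measured in this list passed the test. Rara, Rarg and Rxrb, which bind retinoids in the nucleus, gave differences of -0.11, 0.01 and -0.01. Rxra was lower on every MLN array than on every PLN array, by 0.44 on average (2.42 to 2.54 in PLN and 1.88 to 2.26 in MLN), without passing the test (adjusted p = 0.237). Nrip1, a corepressor of nuclear receptors, was higher in all 4 pairs by 0.34 (adjusted p = 0.188), which 5.51% of all features also were. The retinaldehyde dehydrogenases Aldh1a2 and Aldh1a3 and the retinoic acid hydroxylases Cyp26a1 and Cyp26b1 were among 18 listed genes for which no named probe passed the filter on dim probes.

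Promoter sequences, credited to RefSeq on build GRCm38.p6, are shown for P2rx7, which passed in every fit tried over the 4 pairs, and, further below, for genes of the interferon list. The retinoic acid receptor half-site AGGTCA was searched on both strands from 250 bases before to 50 after a start. It was present in 16.3% of 32851 promoters. Of the 21 named genes past the threshold, 14 had a promoter entry, with 21 promoters, and 1 of the 21 held the half-site (4.76%). It lay in the promoter of the second P2rx7 start, on the opposite strand, 192 bases before the start. Direct repeats of the half-site with 1, 2 or 5 bases between them were in none of the 21 and in 0.0396%, 0.00913% and 0.00913% of all promoters. The 200 bases before that start, chr5:122650183-122650382 on the plus strand, are printed 5′ to 3′ with the half-site in capitals, and a match is a description, not a site.
P2rx7: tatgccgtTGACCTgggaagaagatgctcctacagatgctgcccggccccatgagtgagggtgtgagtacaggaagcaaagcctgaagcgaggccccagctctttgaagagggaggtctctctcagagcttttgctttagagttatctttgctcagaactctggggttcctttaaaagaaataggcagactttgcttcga

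Nt5e rose beside P2rx7 among genes that handle extracellular ATP and NAD. Of 18 measured members of the purinergic list, P2rx7 and Nt5e rose and none fell, beside 0.0931% of all features that rose. In all 4 pairs 8 were higher, as were 5.51% of all features. Nt5e encodes CD73, the ectoenzyme that makes adenosine from AMP. It read 1.27, 1.00, 1.31 and 1.28 in PLN and 2.23, 2.14, 2.25 and 2.45 in MLN, in the order WT, WT, AID KO and uMT. The 4 pairs gave nearly 1 value, and the rise was 2.07-fold (log2 1.05, SE 0.07, adjusted p = 0.0129). Art2b, an ADP-ribosyltransferase that uses extracellular NAD and can open P2X7, read -0.55 to 0.38 in PLN and 1.14 to 1.37 in MLN. Its groups did not overlap, but its difference of 1.26 (SE 0.13) missed the threshold (adjusted p = 0.0538). The ATP channel P2rx4 gave 0.35 (adjusted p = 0.298) and the NAD glycohydrolase Cd38 gave 0.76 (adjusted p = 0.189), each without overlap of the arrays. The list's median difference was 0.19 over the 4 pairs. It was 0.24 and 0.39 in the WT pairs, 0.37 in the AID KO pair and -0.05 in the uMT pair. The knockout pairs cross slides, and after the slide difference of the WT arrays was taken off their medians were 0.50 and 0.01, so the sign of the uMT pair turned.

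Deltex genes rose beside other members of the Notch list that did not pass the test. Of 16 measured members of the Notch list, Dtx4 and Dtx1, both E3 ubiquitin ligases of the Deltex family, rose, beside 0.0931% of all features. Dtx4 read -1.07, -1.11, -1.01 and -0.64 in PLN and 1.90, 1.54, 1.56 and 2.19 in MLN. This is a 6.74-fold rise (log2 2.75, SE 0.12, adjusted p = 0.00563), with 2.81 in WT and 2.69 in knockout pairs. Dtx1 read 5.01, 4.80, 4.97 and 4.43 in PLN and 6.08, 5.83, 5.90 and 5.74 in MLN, a rise of 1.08 (SE 0.07, adjusted p = 0.00625). Their paralogs Dtx2 and Dtx3 differed by -0.05 and -0.01. Of the other members of the list, Hey1 gave 0.41 (adjusted p = 0.477) and Nrarp 0.02, and the receptors Notch1, Notch2 and Notch3 gave 0.18, 0.03 and 0.07.

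Other regulators rose by 1.66-fold to 5.35-fold. Osgin1, an oxidative stress-induced growth inhibitor, read -2.28, -2.26, -2.25 and -2.02 in PLN and 0.58, 0.35, -0.13 and 0.06 in MLN. The rise was 2.42 (SE 0.15, adjusted p = 0.00687), and it was the sole one of 12 measured members of the list of AHR and NRF2 responses to pass. Bcl3, an atypical member of the I-kappaB family, read 2.69 to 2.92 in PLN and 4.19 to 4.38 in MLN. It rose by 1.52 (SE 0.09, adjusted p = 0.00563). Gadd45g, a stress-response gene, read 1.09 to 1.59 in PLN and 2.62 to 3.02 in MLN, and rose by 1.51 (SE 0.08, adjusted p = 0.00563). Its paralog Gadd45b was 0.98 higher, with an adjusted p of 0.0758.

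At least 2-fold in all 4 pairs without passing were also Sh3gl3 and Metrnl, not well above background in PLN and at least 2.03-fold and 2.1-fold higher in MLN (adjusted p = 0.06 and 0.157). Among the genes that passed, Sema7a, a membrane-anchored semaphorin, rose by 1.17 and Rasgrp4, a Ras exchange factor, by 1.13, both with an adjusted p of 0.00563. Gfi1, a transcriptional repressor of lymphoid and myeloid cells, read 2.60 to 3.01 in PLN and 3.76 to 4.12 in MLN and rose by 1.04 (adjusted p = 0.0366). Serpinb1a, a protease inhibitor, rose by 0.94 (adjusted p = 0.0256) and Gpsm2, a G-protein signalling modulator, by 0.87 (adjusted p = 0.0378). Pmepa1, a gene induced by TGF-beta, rose by 0.73 (adjusted p = 0.0465), while the other 17 measured members of the TGF-beta list did not pass, with Smad7 at -0.10 and Itgae at 0.21.

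Gcnt1 fell in MLN among genes of selectin ligands and of homing to skin. Of 17 measured members of that list, 15 had a difference below 0, Gcnt1 fell (0.0116% of all features fell), none rose, 8 were lower in all 4 pairs and none was higher in all 4. Lower in all 4 pairs was 7.64% of all features. The list's median was -0.23, and it was -0.22 and -0.20 in the WT pairs, -0.32 in the AID KO pair and -0.18 in the uMT pair (-0.21 and -0.20 with the slide difference taken off), beside -0.03, -0.01, 0.09 and -0.11 over all features. Gcnt1, the core 2 branching enzyme needed for P-selectin ligands, read -4.89, -4.59, -4.10 and -4.48 in PLN. It was not well above background on any MLN array, where it read -6.82 to -6.15, so it was at least 1.22-fold lower in MLN (adjusted p = 0.00563). With normexp the Gcnt1 difference was -0.48 and did not pass (adjusted p = 0.18).

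Ccr10, a chemokine receptor of skin-homing T cells, did not pass the test. It read -3.56, -3.37, -3.10 and -3.32 in PLN, was not well above background on any MLN array, and was at least 2.76-fold lower there (adjusted p = 0.0788). Fut7, a fucosyltransferase of selectin ligands, gave -0.35 (adjusted p = 0.383) and Cxcr3, a receptor of inflammatory chemokines, -0.30 (adjusted p = 0.339), both without overlap of the arrays. Selplg, the backbone of P-selectin ligand, gave -0.01.

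None of the gut homing receptors passed the test. Ccr9 read 3.31, 2.97, 3.53 and 3.15 in PLN and 3.83, 3.50, 3.63 and 3.69 in MLN. Its difference was 0.42 (SE 0.08, adjusted p = 0.219), and AID KO PLN overlapped the MLN arrays. Itgb7, the beta7 chain, read 6.10 to 6.26 in PLN and 6.29 to 6.66 in MLN without overlap, a difference of 0.31 (adjusted p = 0.249). Its partners gave -0.14 for Itga4 and 0.21 for Itgae, the alphaE chain of intraepithelial T cells. Ccr6, a receptor of cells that enter Peyer's patches, gave -1.21 (adjusted p = 0.173) and was above background on 2 of 4 MLN arrays. The 2 members of the gut list of 22 measured genes that rose were P2rx7 and Hic1, which other lists hold too. An unadjusted p under 0.05 over the 4 pairs was held by 12 of the 22, beside 2350 of all 25788 features. Of the 22, 13 had a fitted difference above 0 and 9 below 0.

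**Figure D2:**
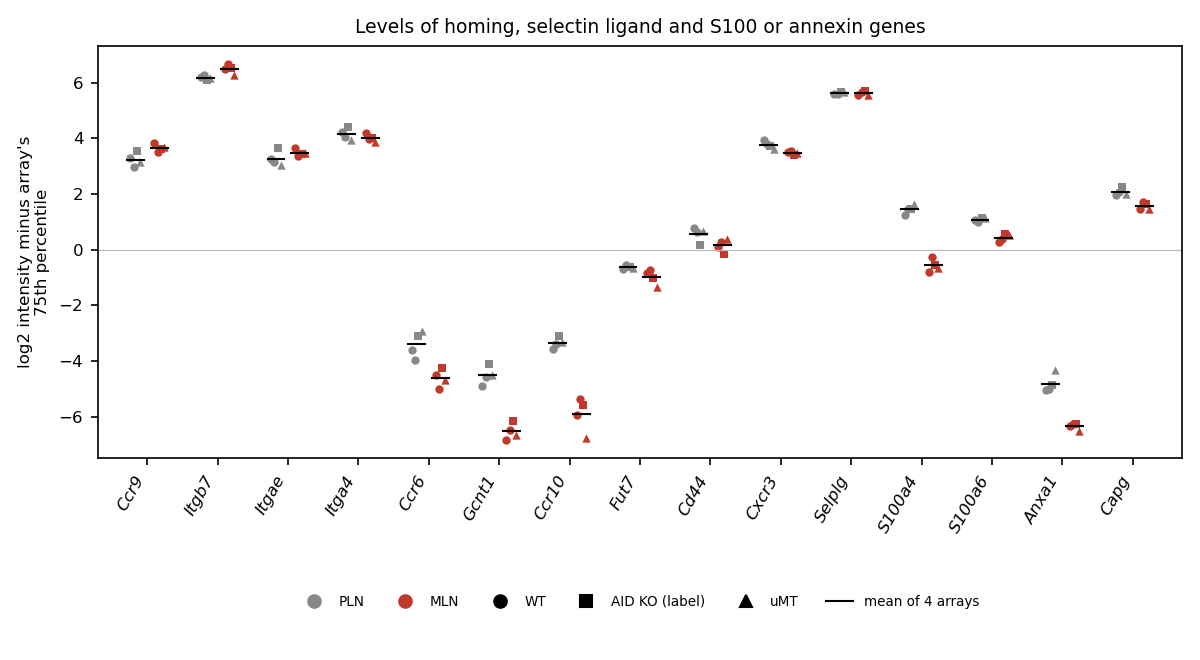
Level of 15 genes of gut homing (Ccr9 to Ccr6), selectin ligands and skin homing (Gcnt1 to Selplg) and S100, annexin or actin-capping proteins (S100a4 to Capg), as log2 intensity minus the array's 75th percentile. Grey is PLN, red is MLN, and bars are means of 4 arrays. The PLN and MLN points of Gcnt1, Ccr10, S100a4 and Anxa1 do not overlap, with MLN not well above background for Gcnt1, Ccr10 and Anxa1, whereas those of Ccr9 and Itgae overlap.

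Anxa1 was called lower in MLN among genes of calcium-binding and lectin proteins. Of 21 measured members of the list of S100, annexin and galectin genes, Anxa1 was the 1 called lower, beside 0.0116% of all features. In all 4 pairs 7 were lower, as were 7.64% of all features. Anxa1, an anti-inflammatory annexin, read -5.04, -5.01, -4.85 and -4.33 in PLN and was not well above background on any MLN array, at -6.51 to -6.27 (adjusted p = 0.0387). No fold is given, since its bound was under 1, and with normexp the difference was -0.31 and did not pass (adjusted p = 0.437). S100a4, a calcium-binding protein of memory and migrating cells, read 1.26, 1.48, 1.47 and 1.64 in PLN and -0.79, -0.27, -0.55 and -0.64 in MLN. Its difference of -2.02 (SE 0.22) did not pass (adjusted p = 0.0638), although its groups lay far apart. S100a6 gave -0.65 (adjusted p = 0.0594), whereas Lgals3, a galectin, was higher in every MLN array, by 0.75 (SE 0.51, adjusted p = 0.75).

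Wnt10a, a secreted Wnt ligand, fell in MLN and was above background on all 8 arrays. It read -1.5, -1.92, -0.87 and -1.08 in PLN and -4.28, -4.35, -4.19 and -4.35 in MLN. The MLN arrays lay close together while PLN varied more. They were near the lowest signal that counted as well above background on the MLN arrays, -5.13 to -4.51. The level was 7.71-fold lower in MLN (log2 -2.95, SE 0.17, adjusted p = 0.00603). Over the alternative fits the Wnt10a difference lay between -3.10 and -1.67. The latter came with normexp background and still passed. Of 21 measured members of the Wnt list it was the sole one to pass, and Axin2, a target of the pathway, gave -0.29 (adjusted p = 0.399).

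No single gene of the effector and memory list passed the test over the 4 pairs, and lists were not tested as groups. Gzma, a granzyme of cytotoxic cells, read -0.38, -0.61, -0.47 and -0.09 in PLN and 0.84, 1.00, 2.34 and 2.0 in MLN. It was higher in all 4 pairs and highest in the 2 knockout MLN arrays, with a difference of 1.93 (SE 0.24, adjusted p = 0.0876). Tbx21, the transcription factor T-bet, gave 0.46 (adjusted p = 0.101), and Tnf gave 1.34 in the WT pairs and 0.31 in the knockout pairs (interaction adjusted p = 0.866). None of 37 measured effector and memory genes, 23 naive and quiescence genes, 33 proliferation genes, 29 immediate early genes or 30 lipid genes passed over the 4 pairs. Ccr7, which lets T cells enter nodes, gave -0.16. An unadjusted p under 0.05 was held by 19 of the 37 effector and memory genes and 14 of the 29 immediate early genes. The same held for 5 of 23 naive, 0 of 33 proliferation and 5 of 30 lipid genes, beside 2350 of all 25788 features.

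Hbb-b2, a beta globin gene, rose in MLN. It was not well above background on any PLN array and read -4.33, -3.27, -4.74 and -2.69 in MLN, at least 2.56-fold higher (adjusted p = 0.0409). With normexp the Hbb-b2 difference was 0.69 and did not pass (adjusted p = 0.269). Hba-a1 read -3.69, -2.16, -2.42 and -0.70 in PLN and 0.45, 1.05, -0.17 and 2.07 in MLN, a difference of 3.09 (SE 0.39, adjusted p = 0.0876). Hba-a2 gave 3.18 (adjusted p = 0.0788). Hbb-bt was above background on 1 of 4 PLN arrays and on all 4 MLN arrays, so no size is given for it, and these near-identical copies can share probes. The summed level of the 3 measured genes of the erythroid list lay between -2.72 and 0.39 in PLN and between 0.96 and 3.14 in MLN. The erythroid membrane and haem genes Alas2 and Slc4a1 had no named probe that passed the filter. The uMT array had the highest Hba-a1 level at both sites. The part of red cell RNA in other differences was not tested.

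Fbln2 rose among markers of other cell types. Fbln2, an extracellular matrix gene of fibroblasts, was above background on 3 MLN arrays and no PLN array and at least 1.9-fold higher in MLN (adjusted p = 0.0332). The Fbln2 call was kept in 2 of 16 alternatives and lost without any 1 of the 8 arrays, with an adjusted p of 0.0242 to 0.552. It was 1 of 7 measured genes among 20 stromal and endothelial markers, whose summed level was 4.17 to 4.53 in PLN and 3.91 to 4.73 in MLN, and Col3a1, Pdgfra, Pdgfrb and Lyve1 were not tested for the same reason. B cell markers summed to 3.95 to 4.33 in PLN and 4.12 to 4.36 in MLN over 14 measured genes, with Ms4a1 not tested. The sum was 4.075 and 4.224 on the uMT arrays, from mice that lack mature B cells, and 3.95 to 4.19 on the WT arrays. It is thus no measure of B cells. NK and innate-like markers summed to 4.20, 4.32, 3.41 and 4.63 in PLN, in the order WT, WT, AID KO and uMT. In MLN they summed to 3.54, 3.75, 3.55 and 3.82. The sum was thus lower in MLN in the WT and uMT pairs and higher in the AID KO pair. Of the 12 measured NK and innate-like genes, 6 had an unadjusted p under 0.05 over the 4 pairs, beside 2350 of all 25788 features. Macrophage markers summed to 1.03 to 1.96 in PLN and 1.28 to 1.99 in MLN, and gut epithelial markers to 1.45 to 1.76 and 1.52 to 1.72. Dendritic cell markers summed to 6.08 to 7.16 and 5.88 to 7.14, CD4 T cell markers to 3.55 to 3.93 and 3.28 to 3.57, neutrophil and mast cell markers to 6.54 to 7.08 and 6.49 to 6.99, plasma cell markers to 3.86 to 4.22 and 3.86 to 4.12, and adipocyte markers to -1.59 to -0.97 and -1.65 to -0.92. Of these marker genes Fbln2 alone passed the test, and their part in the differences was not tested. Some sums rest mostly on 1 bright gene and are no measure of a cell type. Csf3r alone read 6.54 to 7.08 in PLN, where the median neutrophil and mast cell marker read -4.36 to -3.34. In the dendritic cell sum, Siglech read 5.4 to 6.74 in PLN, and in the stromal sum Acta2 read 4.09 to 4.46.

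The WT pairs taken apart gave 3 features past the threshold (0.0116%), all higher in MLN. They were P2rx7 (2.73, SE 0.10, adjusted p = 0.0405), Osgin1 (2.73, SE 0.12, adjusted p = 0.0405) and Vwa5b2. Vwa5b2 read -3.24 and -3.37 in WT MLN and was not well above background on the other 6 arrays, at least 3.51-fold higher in WT MLN than in WT PLN (adjusted p = 0.0465). It entered the test through the WT MLN arrays alone, so this call is a description. Without any 1 of the 8 arrays the WT count was 0 or 1. By size alone, 109 features were at least 2-fold higher in both WT pairs (0.423% of 25780) and 50 at least 2-fold lower (0.194%).

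The knockout pairs gave 6 features past the threshold (0.0233%), 5 higher (0.0194%) and 1 lower (0.00388%) in MLN. The named ones were P2rx7 (2.60, SE 0.10, adjusted p = 0.0291), Rsad2 (2.06, SE 0.11, adjusted p = 0.0485), Osgin1 (2.10, SE 0.12, adjusted p = 0.0485) and Wnt10a (-3.29, SE 0.16, adjusted p = 0.0483). Without any 1 of the 8 arrays the knockout count was 0, so these calls need every array. At least 2-fold higher in both knockout pairs were 108 features (0.419%), and at least 2-fold lower were 36 (0.14%).

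WT and knockout pairs share no array, and 23 features were at least 2-fold higher in all 4 pairs (0.0892%). These are 21.1% of the 109 in WT and 21.3% of the 108 in the knockouts. Lower in all 4 pairs by 2-fold were 7 (0.0272%), which are 14% and 19.4%. In opposite directions, 8 features were 2-fold lower in both WT pairs and higher in both knockout pairs, and none went the other way. Across 25780 features the mean WT and mean knockout differences had a Pearson correlation of 0.18, against 0.178 between the 2 WT pairs and -0.319 between the AID KO and uMT pairs. The last was -0.289 after the slide difference of the WT arrays was taken off. That estimate was subtracted from the AID KO pair and added to the uMT pair, so its noise itself pushes this correlation below 0. The part of slide in the negative correlation was not tested. Features share arrays and are not independent, so these are descriptions of the arrays.

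**Figure D3:**
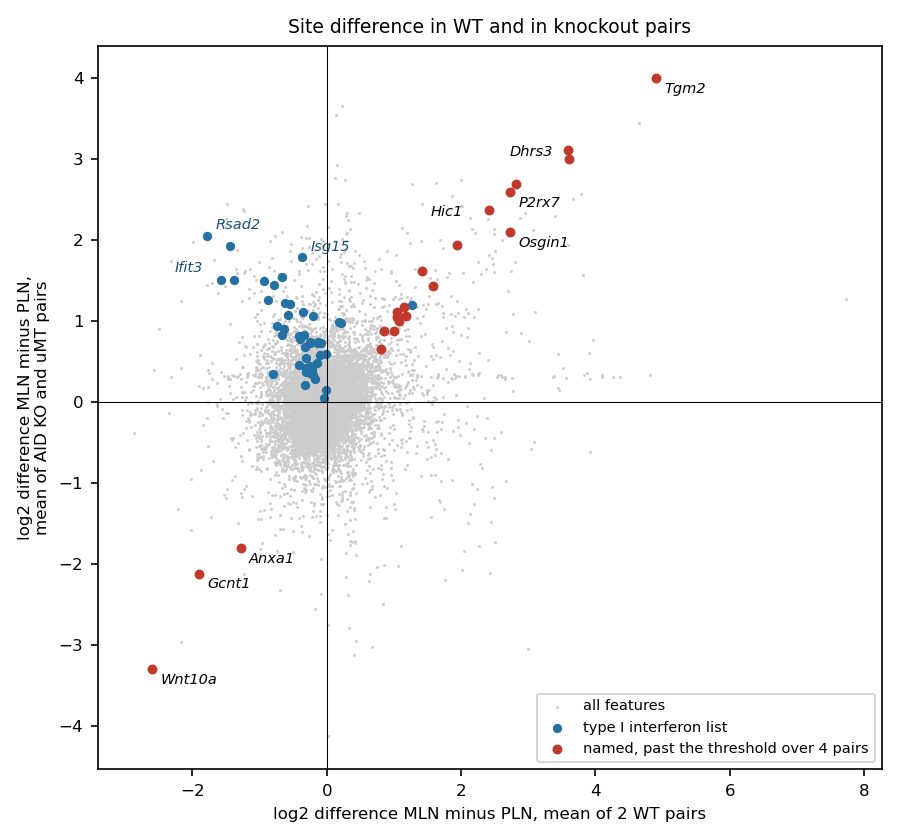
Log2 difference MLN minus PLN of each of 25780 features, as the mean of 2 WT pairs (x axis) and the mean of the 2 knockout pairs (y axis). Red points are the 21 named genes past the threshold over the 4 pairs, blue points 47 type I interferon response genes, grey points all features. Red points lie near the diagonal, which the choice of these genes by the test over all 4 pairs favours. Most blue points lie at upper left, below 0 in WT and above 0 in the knockouts.

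Named genes past the threshold over the 4 pairs were set against each other in WT and knockout pairs. Among those above background on every array, the interaction, the knockout difference minus the WT difference, lay between -0.69 for Wnt10a and 0.20 for Bcl3, and none passed. For P2rx7 the interaction was -0.13 (SE 0.15) and for Dtx4 -0.12 (SE 0.26). Osgin1 gave -0.63 (SE 0.17, adjusted p = 0.913) and Wnt10a -0.69 (SE 0.22, adjusted p = 0.999). The test over the 4 pairs favours genes whose WT and knockout differences are alike, so small interactions are in part set by this choice. A p that misses the threshold does not show that WT and knockout cells were alike.

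Interferon response genes lay on opposite sides of 0 in WT and knockout pairs. They are induced when cells sense type I interferon, and they encode antiviral proteins. Of 47 measured genes, 44 had a fitted difference below 0 over the WT pairs and 47 had one above 0 over the knockout pairs, although a few of the latter lay below 0 in a single pair. The median difference was -0.32 and -0.30 in the WT pairs, 0.48 in the AID KO pair and 1.02 in the uMT pair (0.64 and 0.91 with the slide difference taken off). The interaction had a median of 0.99, beside 0.01 over all features, and was above 0 for 46 of 47 genes. The list's median level was 2.30 to 2.52 on the 4 PLN arrays, 2.09 and 2.25 in WT MLN, 2.96 for MLN with AID KO and 3.53 with uMT. The 4 PLN arrays were thus close together, and the MLN arrays spread to both sides of them.

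No gene passed the test of the interaction in limma (0%), although 43 of the 47 had an unadjusted p under 0.05, as did 1102 of all 25788 features. The number of features passing was 23 with normexp background, 17 with the authors' series matrix values, 12 with a stricter filter on dim probes and 1 with median scaling. Of the 47 list genes these were 15, 11, 7 and 1. Other alternatives gave 0. The list's median interaction lay between 0.84, without either uMT array, and 1.16, without either AID KO array, over these fits. The knockout side consists of 2 genotypes with 1 pair each, whose MLN arrays lie on different slides.

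**Figure D4:**
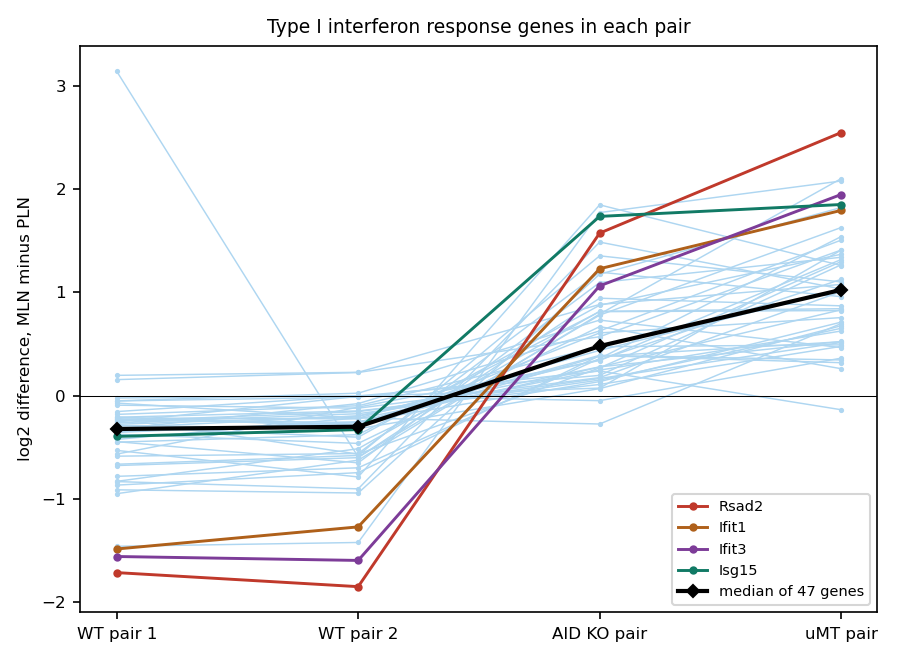
Log2 difference MLN minus PLN of 47 type I interferon response genes (light blue lines) in each pair, with Rsad2, Ifit1, Ifit3 and Isg15 in colour and the median in black. The lines join the values of a gene and mark no order of pairs. The median lies at -0.32 and -0.30 in the WT pairs and at 0.48 and 1.02 in the AID KO and uMT pairs.

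Rsad2, which encodes the antiviral enzyme viperin, had the largest interaction of the list. It read -0.37 and -0.84 in WT PLN, -1.35 with AID KO and -0.82 with uMT. In MLN it read -2.09 and -2.69 in WT, 0.23 in AID KO and 1.73 in uMT. MLN was thus below PLN in both WT pairs and above it in both knockout pairs, with differences of -1.78 in WT and 2.06 in the knockouts and an interaction of 3.84 (SE 0.16, adjusted p = 0.0676). A dimmer probe, above background on 6 arrays, read -3.25 and -3.52 in WT PLN, -6.00 and -5.22 in WT MLN, and -2.60 and -1.57 in AID KO and uMT MLN.

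Ifit1, an RNA-binding antiviral protein, read 0.85, 0.53, 0.34 and 0.47 in PLN and -0.64, -0.75, 1.57 and 2.27 in MLN. Its interaction was 2.89 (SE 0.15, adjusted p = 0.0937). Ifit3, which works with Ifit1, read 2.69, 2.63, 2.30 and 2.52 in PLN and 1.13, 1.03, 3.36 and 4.46 in MLN. Its interaction was 3.08 with an adjusted p of 0.0971. The oligoadenylate synthetase-like genes Oasl1 and Oasl2 gave interactions of 2.13 and 2.43 (adjusted p = 0.0971 and 0.0937).

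Isg15, a ubiquitin-like modifier, read 3.58, 3.83, 3.24 and 3.66 in PLN and 3.19, 3.50, 4.98 and 5.51 in MLN. The difference was -0.36 in WT and 1.79 in the knockouts, with an interaction of 2.16 (adjusted p = 0.159). Oas1g was the 1 list gene without an interaction above 0 and differed between the WT pairs, at 3.14 and -0.59.

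The list of interferon-gamma response and antigen presentation genes lay the same way by less. Its 32 measured genes had medians of -0.16 and -0.18 in the WT pairs and 0.25 and 0.60 in the AID KO and uMT pairs (0.29 and 0.44 with the slide difference taken off). The interaction was above 0 for all 32 and passed for none, and 17 had an unadjusted p under 0.05. Cxcl10, a chemokine that binds CXCR3, gave -0.29 in WT and 2.17 in the knockouts (interaction adjusted p = 0.114). Its AID KO PLN array, at -2.29, was the lowest of the 4 PLN arrays, which otherwise read -0.69 to -0.30.

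Promoters of many interferon-induced genes hold the interferon-stimulated response element. Its core, GAAA followed after any 2 bases by GAAA, was searched on both strands with overlaps counted, a choice made after the values were seen. It was in 3.44% of 32851 promoters and in 20 of 41 promoters (48.8%) of the 34 list genes with an entry. The list was drawn up as interferon response genes, so its high share follows from that choice and does not bear on site. Rsad2, Ifit1, Ifit3 and Isg15 held the core, and the promoters of Oasl1 and Oasl2 did not hold these letters. For Rsad2, Ifit1, Ifit3 and Isg15, the 200 bases before the start are printed 5′ to 3′ on the gene's strand with matches in capitals. They lie at chr12:26456453-26456652 (minus strand), chr19:34640689-34640888 (plus), chr19:34583329-34583528 (plus) and chr4:156200819-156201018 (minus).
Rsad2: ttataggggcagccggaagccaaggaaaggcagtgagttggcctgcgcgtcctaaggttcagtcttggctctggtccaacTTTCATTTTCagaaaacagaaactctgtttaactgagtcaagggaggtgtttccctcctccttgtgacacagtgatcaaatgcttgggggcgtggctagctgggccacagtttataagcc
Ifit1: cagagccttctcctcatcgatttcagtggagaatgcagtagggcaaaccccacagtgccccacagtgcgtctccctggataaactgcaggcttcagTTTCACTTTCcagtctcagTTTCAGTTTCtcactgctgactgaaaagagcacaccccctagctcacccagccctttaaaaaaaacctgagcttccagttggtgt
Ifit3: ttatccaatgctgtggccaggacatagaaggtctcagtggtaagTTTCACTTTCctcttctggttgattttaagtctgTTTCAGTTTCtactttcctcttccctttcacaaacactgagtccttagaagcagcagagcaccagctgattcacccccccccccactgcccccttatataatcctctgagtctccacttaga
Isg15: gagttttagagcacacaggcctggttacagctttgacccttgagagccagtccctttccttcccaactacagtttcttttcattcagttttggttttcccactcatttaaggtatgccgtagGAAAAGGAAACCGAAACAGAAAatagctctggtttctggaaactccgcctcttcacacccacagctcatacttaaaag
The Rsad2 match lay 120 bases before the start on the opposite strand, and the overlapping matches of Isg15 lay on the gene's own strand.

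The medians of the other 17 lists that are not cell type markers lay between -0.32 and 0.39 in each pair, and those of all features between -0.11 and 0.09.

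**Figure D5:**
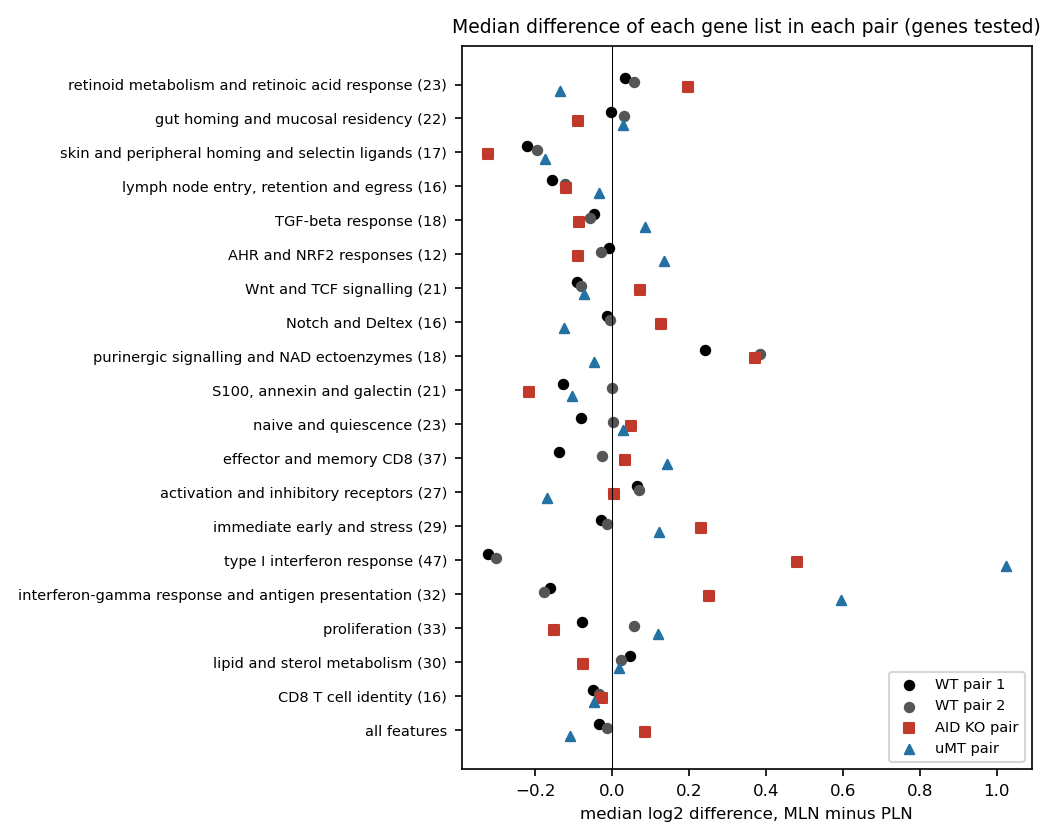
Median log2 difference MLN minus PLN of the measured genes of 19 lists, and of all features, in each of the 4 pairs (genes measured in parentheses), with the slide difference left in. Black and dark grey circles are the WT pairs, red squares the AID KO pair by label and blue triangles the uMT pair. The type I interferon list lies at -0.32 and -0.30 in WT and at 0.48 and 1.02 in the knockouts.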

How the data were processed

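RNA of 12 samples was labelled with Cy3 and hybridised to 1-colour Agilent arrays, and spot intensity was extracted with Agilent Feature Extraction 11.0.1.1, per the submitters' processing notes. The authors deposited for each array a processed intensity, background-subtracted per the file headers, raw spot and background intensity, and other columns with flags. The authors also deposited a table of log2 values, which the values show to be quantile normalised within each slide.

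Levels were computed as log2 of the processed intensity minus each array's 75th percentile. Control and outlier-flagged spots were left out. Features well above background on at least 2 of 12 arrays were kept, with the brightest probe of a gene. Of 56605 probes, 32994 had 1 symbol through RefSeq accessions (GRCm38.p6) and 23611 had none. The 25788 features, of which 13908 are named genes, were fitted with limma 3.58.1 in R 4.3.3 over all 12 arrays, with terms for site, slide, genotype and the naive arrays (4 residual degrees of freedom). A second fit had separate site terms for WT and knockouts (3 residual degrees of freedom). P-values were two-sided and adjusted by Benjamini-Hochberg over all features at 0.05. The fits were tested on simulated data.

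Arrays were grouped by the labels. The alternatives were normexp on median spot and background signals (offset 50, since no mean signal column was used), the deposited log2 table, quantile and median scaling, other filters, the mean of probes, the 8 arrays alone, no slide term, a block of matched pairs, and each array left out. Same-numbered WT arrays share a slide by the file headers, which the slide term holds. Genes were named if past the threshold with 1 sign in all pairs, if at least 2-fold in all 4 pairs, as the extremes of each contrast, or as the leading members of a list. The others named (such as Rara, Rxra, Nrip1, P2rx4, the Notch receptors, Smad7, Itgae, Itga4, Itgb7, Fut7, Selplg, Lgals3, Tnf, Ccr7, Ifit3 and Isg15) were chosen after their values were seen. The comparison and the lists were chosen with earlier results of these data known. The check of the targeted genes and a few other items are not reported here.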

Additional observations from a re-analysis of the deposited data

Results flagged for a closer look

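In 254 sets of 4 arrays of 1 gene at 1 site, 9 held an array far from the other 3, and 4 of the 9 were arrays labelled AID KO. Chance flags about 1 in 20 such sets. In PLN these were Csf1r in WT PLN 2 (-0.20, nearest -0.49), Hic1 in AID KO (-3.27, nearest -2.63), Nt5e in WT PLN 2 (1.00, nearest 1.27) and Osgin1 in uMT (-2.02, nearest -2.25). In MLN they were Klf4 in AID KO (1.38, nearest 2.92), Klra4 in AID KO (0.29, nearest 1.15), Neb in AID KO (-5.69, nearest -4.53), Psme1 in uMT (6.5, nearest 5.95) and Sh3gl3 in WT MLN 2 (-4.41, nearest -3.98). Neb was well above background on 2 MLN arrays and no PLN array.

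The median site difference of the type I interferon list was 0.75 in the knockout pairs and -0.31 in the WT pairs. That of the interferon-gamma list was 0.35 and -0.17. Both pairs of each kind lay on 1 side of 0, no single gene passed the test of the difference, and the difference of the medians was not tested.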

How the results depend on the processing

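Of the 27 features past the threshold over the 4 pairs, normexp background gave 61, the authors' deposited log2 values gave 68, no filter 16, a filter requiring every array of a site above background 85, and leaving out 1 array 2 to 20. The replicate block of matched pairs gave 12, of which 11 were shared. For the WT pairs (3 features) normexp gave 34, the authors' values gave 14, median scaling 15, no slide term 8, the stricter filter 18, and the 8 arrays alone, no filter and the mean of probes 0 each, with 0 to 1 when 1 array was left out. For the knockout pairs (6) normexp gave 51, the authors' values gave 42, the stricter filter 37, and quantile scaling, the 8 arrays alone, no filter, the mean of probes and each array left out 0. For the interaction (0) normexp gave 23, the authors' values gave 17, median scaling 1, the stricter filter 12, and each array left out 0. Features at least 2-fold in both WT pairs numbered 159, against 31 with normexp, 42 in the authors' table, 291 without a filter and 63 with the stricter one. In both knockout pairs they numbered 144, against 36, 30, 280 and 74, and in all 4 pairs 30, against 15 with normexp and 14 in the authors' table. The causes were not tested. Over the 21 named genes, 208 alternative values stayed past the threshold, 163 did not and none changed sign. For 17 other genes the sign turned with the setting, and no direction is given for them in that contrast. The median of all features lay between -0.07 and 0.12 over the settings. Signal over background limits genes dim at 1 site to a bound.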

Other observations

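Some features, chosen after their values were seen, were well above background on both WT MLN arrays and on no other of the 8 arrays. There were 21, of which 18 were at least 2-fold over every other array. Of the other pairings of arrays of 1 site, the 7 that share a slide or are both WT or both knockout gave 0 to 17 at that size, with 17 for WT MLN 1 and uMT MLN, which share a slide. The named ones among the 18 were Cyp2g1, Defa3, Gfi1b, Gng13, Neto1, Slc17a4, Slc51a, Vwa5b2 and Zfp804b. All were picked for being above background on the WT MLN arrays alone, so their folds are in part set by this choice. The gut epithelial marker list had medians of -0.15 and 0.28 in the WT pairs, and none of its genes passed. Defa3, a Paneth cell defensin, read -1.76 and -3.79 in WT MLN and was at least 5.07-fold higher there than in WT PLN. Gng13, a G protein subunit of taste and tuft cells, read -2.64 and -3.96 and was at least 3.52-fold higher. An unnamed probe read 0.38 and 0.50 in WT MLN and was at least 47.1-fold higher. Both WT MLN arrays sit at the same position on their slides, and the part of position was not tested.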
